A study of Mus musculus with 15 samples.

Results

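The histone genes of the mouse thalamus are described here from RNA sequencing of mice that carried or lacked Maged1 in Vglut2 neurons and received saline or cocaine. Members were the listed symbols that began with Hist1h to Hist4h, H2af, H3f3 or H1f, or were Hils1. Only 24 listed symbols met this rule as written, because the tables use newer symbols for most histones. Another 64 listed genes met it through an older symbol in RefSeq, which gave 88 histone genes among 25080 listed genes. Of these, 69 were replication-dependent genes (an older or listed symbol beginning with Hist) and 19 were variant histone genes. The classes follow symbols only. Hist1h2al and H2bu1-ps in the first class, and H3f3c and H2afy3 in the second, are annotated as processed pseudogenes and are kept in counts and sums. Newer symbols are used below wherever the tables list them.

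Thalami were dissected from adult mice aged 2 to 4 months. Control mice, called Maged1 WT in the titles and Maged1 Loxp in the genotype tags, were compared with Maged1 cKO mice, in which Cre driven by the vGluT2 promoter deleted a loxp-flanked Maged1. The deletion therefore concerns Vglut2-expressing neurons only, while the sequenced tissue holds all thalamic cell types. All mice were habituated with saline injections for 3 days. They then received cocaine at 20 mg/kg intraperitoneally or saline vehicle for 5 days. The 14 libraries analysed came from 8 saline mice (n = 4 control, n = 4 cKO) and 6 cocaine mice (n = 4 with the control label, n = 2 with the cKO label). Of the 15 samples, the remaining one, labelled cKO cocaine, was not analysed here. The design states independent biological replicates for every condition.

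Histones are the proteins that package DNA into nucleosomes. H2A, H2B, H3 and H4 form the nucleosome core, and H1 linker histones bind where DNA enters and leaves it. Replication-dependent genes supply histones for newly made DNA during S phase. Their genes lie in clusters, mostly lack introns, and give mRNAs that end after a conserved stem-loop in place of a poly(A) tail. Variant genes are expressed outside S phase as well, usually give polyadenylated mRNA, and supply most of the histones that replace older ones in neurons, which no longer divide. Ribosomal RNA depletion retains RNA without a poly(A) tail, so both kinds of histone mRNA could be measured in the same libraries.

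The stem-loop was searched in every GENCODE M21 transcript (GRCm38) of the members, because mRNAs that end just after it lack a poly(A) tail. A stem-loop in a transcript that runs on does not show how the mRNA ends. It was found in 44 of the 69 replication-dependent genes, beginning 21 to 58 bases after the stop codon. The annotated transcripts of the other 25 genes hold no such stem-loop. Some of these are short, with 312 bases in H4c12 and 381 in H2bc13, H2bc15 and H2bc18. They may end before the place where a stem-loop would lie, so its absence from the mRNA is not shown. Among variant genes, H2ax alone had one. The sequences below belong to the most abundant H4 and H2A genes, to genes that changed, and to H2ax. Capitals mark the stem-loop and lower case letters the bases on either side, written 5′ to 3′ on the sense strand.
H4c4: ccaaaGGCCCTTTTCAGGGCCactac
H4c3: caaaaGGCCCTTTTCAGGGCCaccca
H4c8: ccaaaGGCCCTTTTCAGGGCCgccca
H4c9: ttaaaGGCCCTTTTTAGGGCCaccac
H2ac18: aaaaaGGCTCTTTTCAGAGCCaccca
H2ac20: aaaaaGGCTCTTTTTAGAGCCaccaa
H2bc3: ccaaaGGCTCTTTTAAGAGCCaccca
H3c14: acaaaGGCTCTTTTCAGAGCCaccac
H3c15: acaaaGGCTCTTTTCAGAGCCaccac
H2ax: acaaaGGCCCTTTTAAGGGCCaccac
The H3c14 and H3c15 elements were identical, flanks included. In 22 of the 44 genes an annotated transcript ended within 100 bases of the stem-loop. In the other 22 even the transcript that ended nearest to it ran on, for 770 bases in H4c4, 454 in H4c3 and 1257 in H4c14. H2ax, which is known to give both stem-loop and polyadenylated mRNA, ran on for 822 bases.

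Values are TPM, a measure of transcript abundance that is corrected for length, divided by a trimmed-mean (TMM) scaling factor of the library, and are called scaled TPM. TPM does not show how deeply a library was sequenced, so counting error is unknown here. The TMM factors were 1.072 to 1.209 in saline and 0.807 to 0.9466 in cocaine libraries. The 5 genes with the highest TPM took 18.9 to 21.6% of the listed TPM after saline and 36.0 to 41.6% after cocaine. After saline, Maged1 lay at 150 to 166 scaled TPM in control mice and at 64.5 to 78.0 in cKO mice. After cocaine it lay at 58.5 to 87.9 under the control label and at 153 and 174 under the cKO label, which goes against these labels. Cocaine groups are therefore named by label, and the main comparison averages both labels. The genotype tag named the other genotype for 4 saline libraries (control replicates 3 and 4, cKO replicates 1 and 2). Thalamic marker genes were all expressed, 8 of 8 being tested. Of 8 hypothalamic neuropeptide genes 7 were tested and 3 were lower after cocaine, with sums from 11.2 to 464 scaled TPM after saline and from 4.16 to 128 after cocaine. The summed choroid plexus markers were 13.6 to 1450 in control saline and 2.68 to 42.7 in the other groups. In bulk tissue, a change in the number of cells of a type cannot be told apart from a change in RNA per cell.

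Replication-dependent histone RNA was abundant in this adult tissue, and H4 genes led it. H4c4, a core histone gene of the large cluster on chromosome 13 (GRCm38, 23581598 to 23582735, plus strand), ranked 111 among the 25080 listed genes. Its scaled TPM was 222, 208, 207 and 226 in control saline and 233, 173, 206 and 212 in control-labelled cocaine libraries. The cKO-labelled libraries gave 197, 208, 176 and 223 after saline, and 234 and 224 after cocaine. All groups overlapped except that both cKO cocaine libraries lay above the cKO saline libraries, a difference that did not pass the test (adjusted p = 0.216, limma). H4c3 averaged 186 and H4c8 162 scaled TPM over the 14 libraries. The most abundant replication-dependent H2A gene was H2ac18 at 120 scaled TPM. H4c12 (89.4), H4c14 (84.8), the H2A gene H2aw (84.2), Hist1h4n (72.6), Hist1h4m (69.5) and the H2B gene H2bc18 (61.3) complete the 10 highest, so 7 of the 10 encode H4. These 10 genes held 61.1% of the summed mean level of the 69 replication-dependent genes. The class median was 8.98 scaled TPM. Of the 69 genes, 62 passed the filter of at least 1 TPM in at least 3 libraries.

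Reads were not specific for every copy. Of the 88 members, 69 shared at least 1 window of 100 bases with a transcript of another gene, and 25 replication-dependent genes shared at least 50% of their windows. H4c4 and H4c14 shared none, H4c3 shared 14% and H4c8 38.5%. H2ac18 shared 88.3%, both with H2ac19, a near-identical copy in the same cluster on chromosome 3, and with the model Gm20634. Gm20634 overlaps H2ac18 on the same strand, so the H2ac18 values may include its reads. H2aw lies inside a region where Trim17 is annotated on the same strand, and H2bc18 overlaps the model Gm42743, so their values may include reads from these genes.

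**Figure D1:**
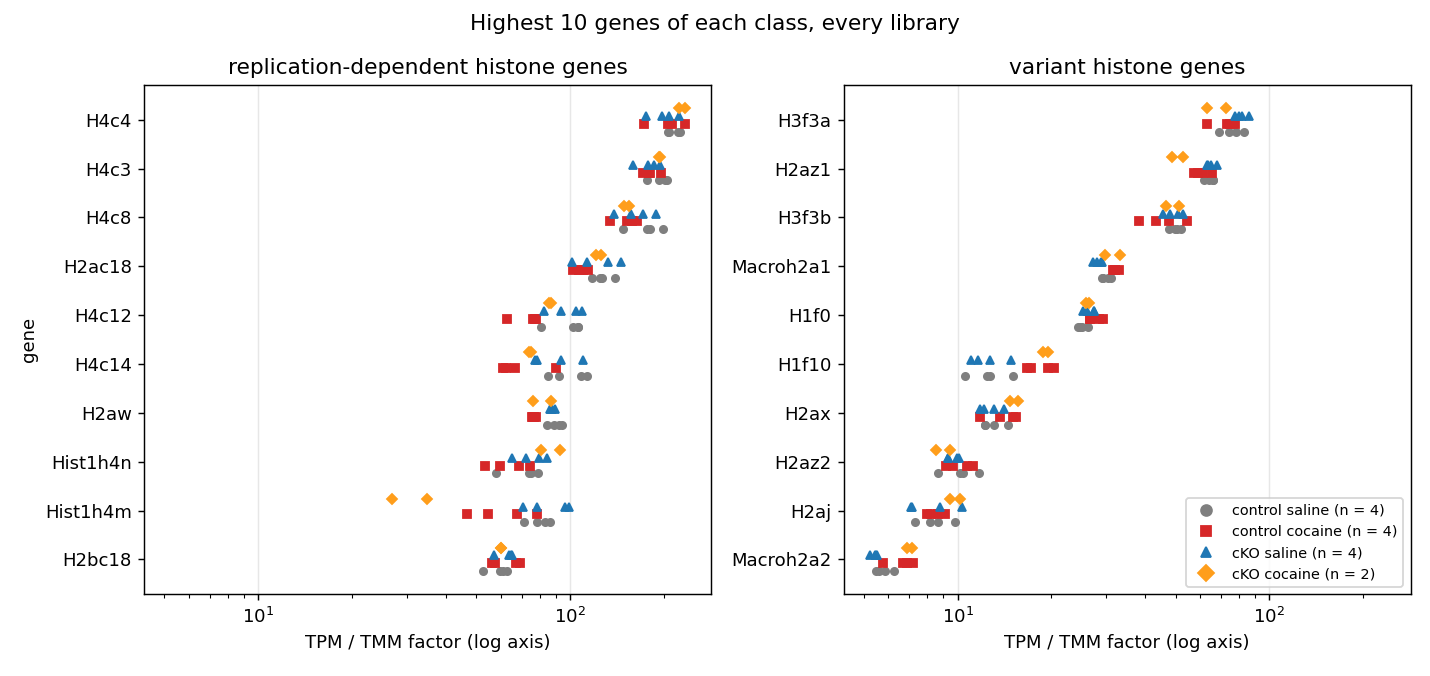
Each point is 1 library. The horizontal log axis gives TPM divided by the TMM factor, for the 10 replication-dependent (left) and 10 variant (right) histone genes with the highest mean. Replication-dependent H4 genes reach 211 scaled TPM on average and the leading variant, H3f3a, 75.2, and H1f10 is the gene on the right whose cocaine libraries all lie above its saline libraries.

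Variant genes formed a short, uneven list. H3f3a and H3f3b both encode H3.3, the replacement H3 of non-dividing cells, and averaged 75.2 and 48.5 scaled TPM. H2az1, which encodes the H2A variant H2A.Z, averaged 61.6 and its paralog H2az2 9.89. Macroh2a1 and Macroh2a2, which encode H2A variants with a large macro domain, averaged 30.3 and 6.10. The linker histone genes H1f0, known for its rise in differentiated cells, and H1f10 averaged 26.4 and 15.2. H2ax, whose protein is phosphorylated at DNA breaks, averaged 13.5 and H2aj 8.64. These 10 genes were the variant members that passed the filter. Another 7 of the 19 variants were listed at 0 in all 14 libraries (H1f7, H2ab1, H2ab2, H2ab3, H2afy3, H2al2a and Hils1), and most of these are known from the male germ line. H3f3c and H1f8 reached at most 0.106 and 0.0457 TPM. Among replication-dependent genes, H2ac1 and H2bc1 were at 0 in all libraries, and Hist1h2al, H3c8, H2ac12, Hist1h2bq and H1f6 did not pass the filter.

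Summed over genes, the replication-dependent class exceeded the variant class in every library. After saline, its sum was 1819 to 1994 scaled TPM in control and 1684 to 2124 in cKO libraries. After cocaine, it was 1595 to 1945 under the control label, and 1837 and 1879 under the cKO label. The variant sums were 289 to 311 and 291 to 314 after saline, and 280 to 312, and 282 and 288, after cocaine. The replication-dependent sums overlapped between all 4 groups. The variant sums of both libraries labelled cKO cocaine lay below every saline library and inside the range of the control-labelled cocaine libraries. These sums were given no test. H4 made the largest family sum, with means of 1140 ± 71.7 (SD, n = 4) in control saline and 1094 ± 127 (SD, n = 4) in cKO saline. After cocaine the H4 means were 1002 ± 107 (SD, n = 4) for the control label and 1037 ± 29.7 (SD, n = 2) for the cKO label. Replication-dependent H2A and H2B sums lay near each other, at 310 ± 17.0 and 244 ± 20.2 in control saline (SD, n = 4). H3 summed to 119 ± 9.28 and H1 to 109 ± 10.7 in the same libraries. TPM is expressed per base of transcript, so the sums compare RNA molecules only as far as the annotated lengths and the assignment of shared reads are right. As shares of the listed TPM, before any scaling, the 88 genes took 0.685 to 0.836% after saline and 0.489 to 0.603% after cocaine. The log2 ratio of cocaine to saline for the replication-dependent sum was -0.09 after TMM scaling and -0.48 in TPM as deposited, where the median of all tested genes was -0.335.

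**Figure D2:**
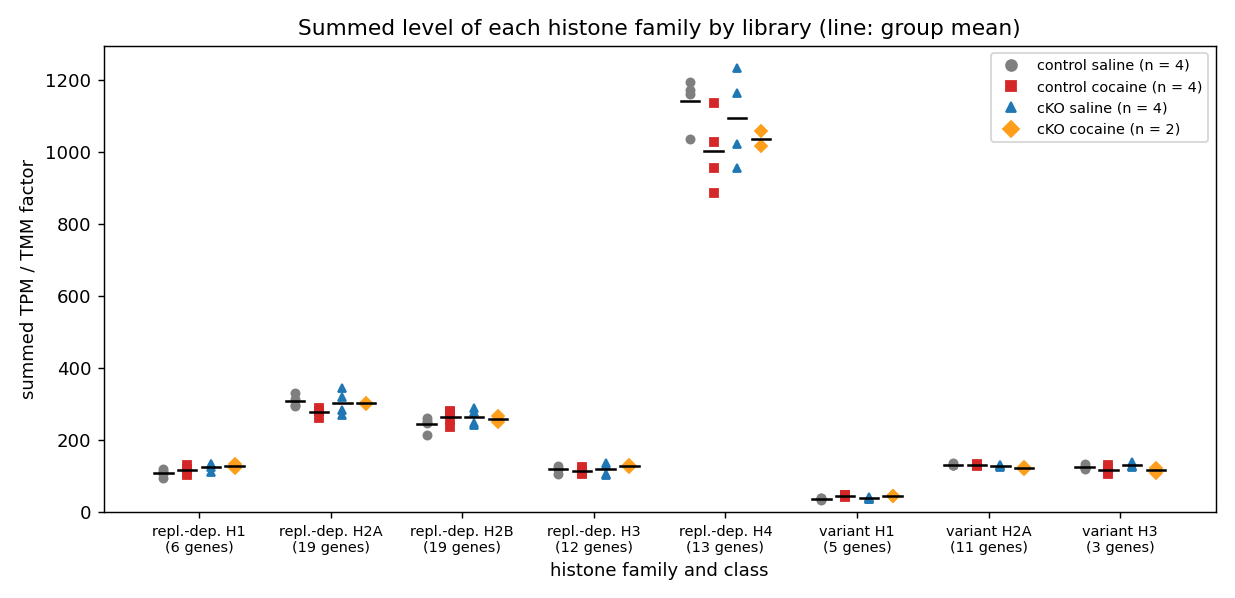
The vertical axis gives the summed TPM divided by the TMM factor for each histone family and class, 1 point per library, with a black line at the group mean. Replication-dependent H4 lies between 887 and 1234 in all libraries and every other family is at most 344.

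The machinery of dividing cells was sparse in the same libraries. Of 20 genes of S phase and proliferation, 7 passed the filter. Mki67, a marker of cycling cells, averaged 0.0696 scaled TPM, Top2a 0.108 and Cdk1 0.0200. The highest of the list were Tyms, thymidylate synthase (23.9), and Pcna, the sliding clamp of DNA polymerases (14.8). The 20 genes together summed to 43.6 to 64.1 scaled TPM per library. Tyms was lower after cocaine (log2 fold change -0.63 ± 0.10 SE, adjusted p = 0.000554, limma) and none of the other 6 tested genes was called in this comparison.

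Cocaine was compared with saline over both genotype labels, to ask which histone genes differed between treatments. A gene was called at an adjusted p under 0.05 and a log2 fold change of at least 0.5 in either direction. Of 72 tested histone genes, 2 were called higher (H1f10 and H3c15) and 3 lower (H3c14, Hist1h4m and H4c9). Over all 13471 tested genes 1.05% were called higher and 1.02% lower. Their log2 fold changes had a median of 0.003, beside 0.007 over all tested genes, with 37 positive and 35 negative values. Among the 24 genes found by the listed symbol 16 were tested, with 1 called higher and 1 lower, namely H1f10 and Hist1h4m. In TPM as deposited, where the median of all tested genes was -0.335, the called histone genes were 2 higher and 16 lower. The share of all genes called in that scaling is not given here, so this count is not read as a result about histone genes. With no minimum of change, 6 of the 72 were higher and 9 lower at an adjusted p under 0.05, where 17.4% and 15.3% of all tested genes were.

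**Figure D3:**
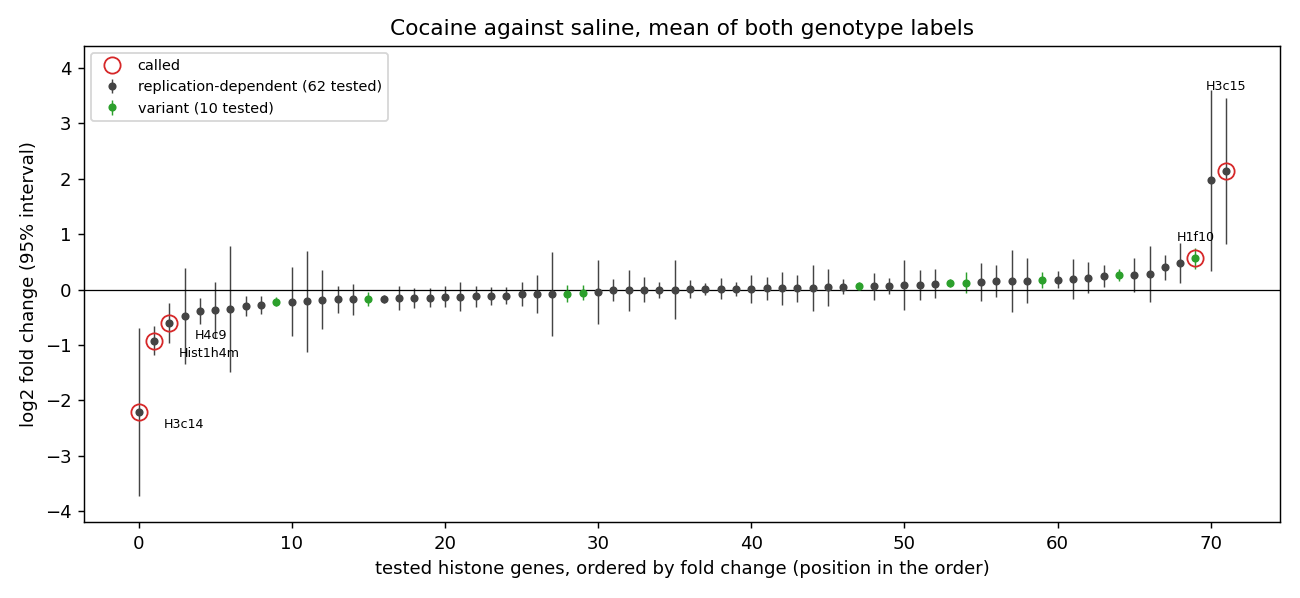
Points give the log2 fold change of cocaine against saline, averaged over both genotype labels, with 95% intervals from limma, for the 72 tested histone genes in order of fold change. Green points are variants, red circles mark the 5 called genes, and the wide bars at both ends belong to copies listed at 0 in some libraries, whose fitted values depend on the pseudocount of 0.5.

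H1f10 (ENSMUSG00000044927.6, chromosome 6, 87980421 to 87981637, minus strand, GRCm38) encodes the linker histone H1x. Its scaled TPM was 12.7, 15.1, 12.4 and 10.6 in control saline, and 17.2, 16.7, 19.6 and 20.3 after cocaine under the control label. Under the cKO label, the saline libraries gave 11.6, 12.7, 11.1 and 14.9 and the cocaine libraries 18.9 and 19.5. All 6 cocaine libraries lay above all 8 saline libraries. The log2 fold change was 0.56 ± 0.08 (SE, adjusted p = 0.000341, limma). It was 0.53 ± 0.11 within the control label (adjusted p = 0.00403) and 0.60 ± 0.13 within the cKO label (adjusted p = 0.00785), and the interaction was 0.07 (95% interval -0.29 to 0.44). None of its 100-base windows occurs in a transcript of another gene. The model Gm47286 overlaps H1f10 on the same strand and Gm5577 on the other, so its values may include reads from Gm47286. The H1f10 transcript has a GC content of 71.3%. After removal of GC and length trends the change was 0.38 (adjusted p = 0.00156, limma), below the minimum of 0.5. In TPM as deposited it was 0.19 (adjusted p = 0.0431), where the median of all tested genes was -0.335. Leaving out control saline replicate 4, control cocaine replicate 3 or control cocaine replicate 4 took the control label change to 0.45, 0.498 and 0.48, just under the minimum. The hypothalamic marker sums given above were lower in every cocaine library than in every control saline library, while cKO saline overlapped with cocaine. The part of these markers in the H1f10 result was not tested. Leaving out cKO cocaine replicate 2 took the cKO label comparison to an adjusted p of 0.0744.

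The other variants moved less than the minimum of change. Macroh2a2 was higher after cocaine (log2 fold change 0.26 ± 0.05 SE, adjusted p = 0.00129, limma), with group means of 5.79 ± 0.35 and 5.41 ± 0.13 scaled TPM after saline against 6.63 ± 0.60 and 7.02 ± 0.17 after cocaine (SD, control then cKO label, n = 4, 4, 4 and 2). Macroh2a1 was higher by 0.12 ± 0.03 (adjusted p = 0.0103). H2az1 fell by 0.22 on the log2 scale (adjusted p = 0.000714), from 64.5 ± 1.95 in control saline (SD, n = 4) and 65.0 ± 2.23 in cKO saline (SD, n = 4) to 60.9 ± 3.47 (SD, n = 4) and 50.8 ± 2.99 (SD, n = 2). Within the cKO label the H2az1 libraries did not overlap, at 63.0 to 68.0 after saline and 48.7 and 52.9 after cocaine. H3f3a fell by 0.17 on the log2 scale (adjusted p = 0.0359), and its libraries overlapped between treatments. The tests for H3f3b, H2az2, H2ax, H2aj and H1f0 did not pass, with log2 fold changes of -0.07, -0.055, 0.17, 0.13 and 0.06 and adjusted p from 0.071 to 0.56. The 95% interval of H3f3b was -0.22 to 0.08 and that of H2ax 0.02 to 0.31.

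Of 13 tested replication-dependent H4 genes, 2 were called lower after cocaine (H4c9 and Hist1h4m) and none higher, where 1.02% of all tested genes were called lower and 1.05% higher. Hist1h4m shares most of its sequence with Hist1h4n, and their sum was not called, which leaves H4c9. The median of the 13 log2 fold change was -0.15, with 8 negative and 5 positive values. The medians were 0.11 for H1 (5 tested), 0.01 for H2A (16), 0.01 for H2B (17) and 0.00 for H3 (11). H4c9 (chromosome 13, 22040636 to 22041362) was 28.7, 24.6, 26.2 and 28.1 scaled TPM in control saline and 24.2, 15.4, 11.8 and 20.7 in control-labelled cocaine libraries. The cKO-labelled libraries gave 18.3, 27.9, 21.4 and 33.5 after saline, and 18.3 and 14.5 after cocaine. The control groups did not overlap, while cKO saline spread across the values of the other groups. The log2 fold change of H4c9 was -0.60 ± 0.17 (SE, adjusted p = 0.0153, limma), and without cKO cocaine replicate 2 it was -0.52 with an adjusted p of 0.0912. H4c14 and H4c12 had log2 fold changes of -0.38 (adjusted p = 0.0179) and -0.29 (adjusted p = 0.0166), below the minimum. The 2 highest members, H4c4 and H4c3, had changes of 0.06 (95% interval -0.09 to 0.21) and 0.01 (95% interval -0.10 to 0.12). Tested genes with a longest transcript under 300 bases, histones left out, had a median of -0.44 in this comparison, and those of 300 to 600 bases -0.04. The median annotated length of the H4 genes was 539 bases, and the part of length in their values was not tested.

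**Figure D4:**
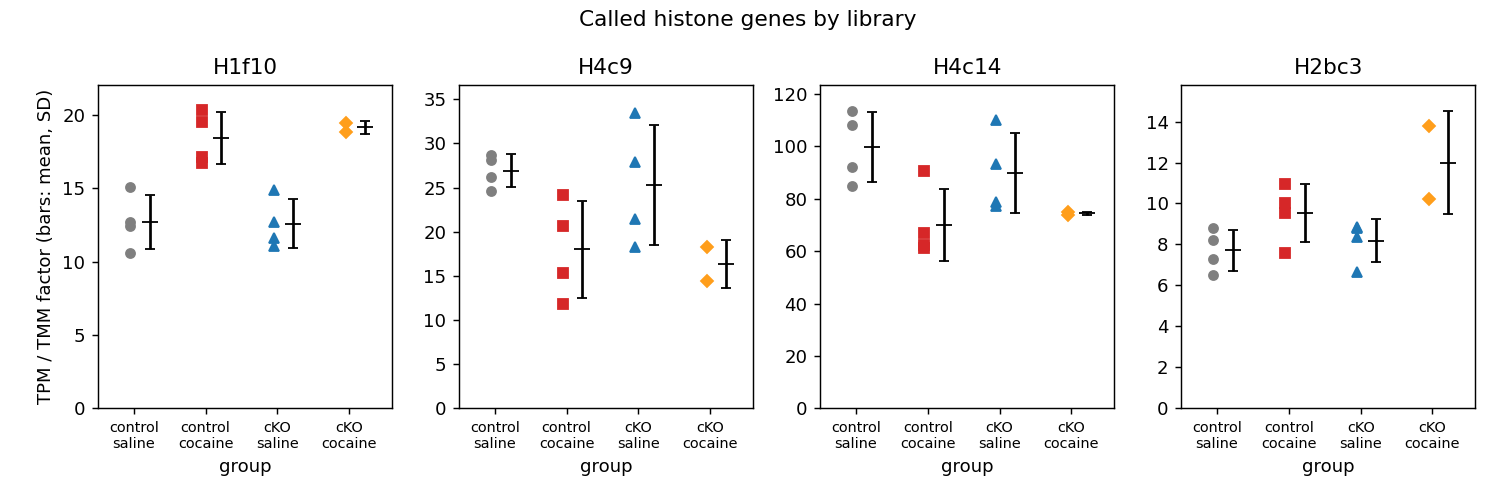
Vertical axes give TPM divided by the TMM factor for 4 called genes, 1 point per library, with the group mean and SD beside them (n = 4, 4, 4 and 2 from left to right). H1f10 is higher in both cocaine groups, at 16.7 to 20.3 against 10.6 to 15.1 after saline, while H4c9 and H4c14 have lower means in the cocaine groups and their control cocaine libraries overlap with cKO saline.

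H3c14 and H3c15, H3 genes of the cluster on chromosome 3 (96246685 to 96248509 and 96238108 to 96239127), were called in opposite directions, and their values alternated between libraries. H3c14 was 6.42, 5.95, 6.62 and 5.15 scaled TPM in control saline, and 4.13, 7.81, 5.91 and 6.24 in cKO saline. H3c15 was listed at 0 in these 8 libraries. After cocaine H3c14 was 0, 0, 7.28 and 0 for the control label and 7.23 and 0 for the cKO label. H3c15 was 4.38, 5.29, 0 and 6.43 in the same control libraries, and 0 and 4.39 in the cKO libraries. Each library thus listed exactly 1 of the genes. All 100-base windows of H3c14 occur in other transcripts, and 61.6% of those of H3c15 do. H3c15 holds only 32.9% of the windows of H3c14. The model Gm20634 overlaps H3c14 on the same strand and also shares its windows. The sum of both genes was 6.03 ± 0.65 (SD, n = 4) in control saline, 5.85 ± 1.27 (SD, n = 4) after cocaine with the control label, 6.02 ± 1.51 (SD, n = 4) in cKO saline and 5.81 ± 2.01 (SD, n = 2) after cocaine with the cKO label. The adjusted p-values were 0.0283 for H3c14 and 0.0165 for H3c15 (limma), and without cKO cocaine replicate 2 they were 0.23 and 0.146. The H3c14 call was also lost without control cocaine replicate 2 (adjusted p = 0.0511) or 4 (adjusted p = 0.0515). When near-identical members were summed before the fit, the sum of H3c13, H3c14 and H3c15 had a log2 fold change of 0.003 (adjusted p = 0.984).

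Hist1h4m and Hist1h4n, neighbouring H4 genes on chromosome 13 (21811746 to 21812147 and 21831767 to 21832196), share 267 windows, which are 88.1% and 80.7% of their transcripts. Hist1h4m was 71.2, 82.9, 78.5 and 86.2 scaled TPM in control saline, and 78.5, 46.7, 54.5 and 67.8 after cocaine under the control label. Under the cKO label, the saline libraries gave 78.3, 99.3, 70.8 and 96.2 and the cocaine libraries 26.9 and 34.9. The last 2 libraries were the lowest of all 14. The log2 fold change of Hist1h4m was -0.93 ± 0.12 (SE, adjusted p = 0.000146, limma). Hist1h4n was 93.1 and 80.4 in the libraries labelled cKO cocaine, against 65.2 to 84.2 in cKO saline, and its change over both labels was 0.03 ± 0.10 (adjusted p = 0.866). The sum of the pair was 151 ± 10.7 (SD, n = 4) in control saline and 162 ± 21.8 (SD, n = 4) in cKO saline. It was 126 ± 21.8 (SD, n = 4) and 118 ± 3.40 (SD, n = 2) after cocaine for the control and cKO labels. Fitted as a sum, the pair fell by 0.36 on the log2 scale (adjusted p = 0.0102), which is below the minimum of change. Hist1h2ap was at 0 in all 8 saline libraries and in 3 of 6 cocaine libraries, and its near-identical partner Hist1h2ao was present in all 14. Hist1h2ap alone did not pass the test (adjusted p = 0.063). The sum of this pair was 6.19 ± 1.44 (SD, n = 4) in control saline and 6.26 ± 2.12 (SD, n = 4) in cKO saline. It was 10.7 ± 1.52 (SD, n = 4) and 11.1 ± 2.22 (SD, n = 2) after cocaine for the control and cKO labels. The lowest cocaine library, at 8.56, lay above all saline libraries but 1 of cKO saline, at 8.63. Fitted as a sum with the third near-identical gene, H2ac11, the log2 fold change was 0.46 (adjusted p = 0.00721), below the minimum.

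**Figure D5:**
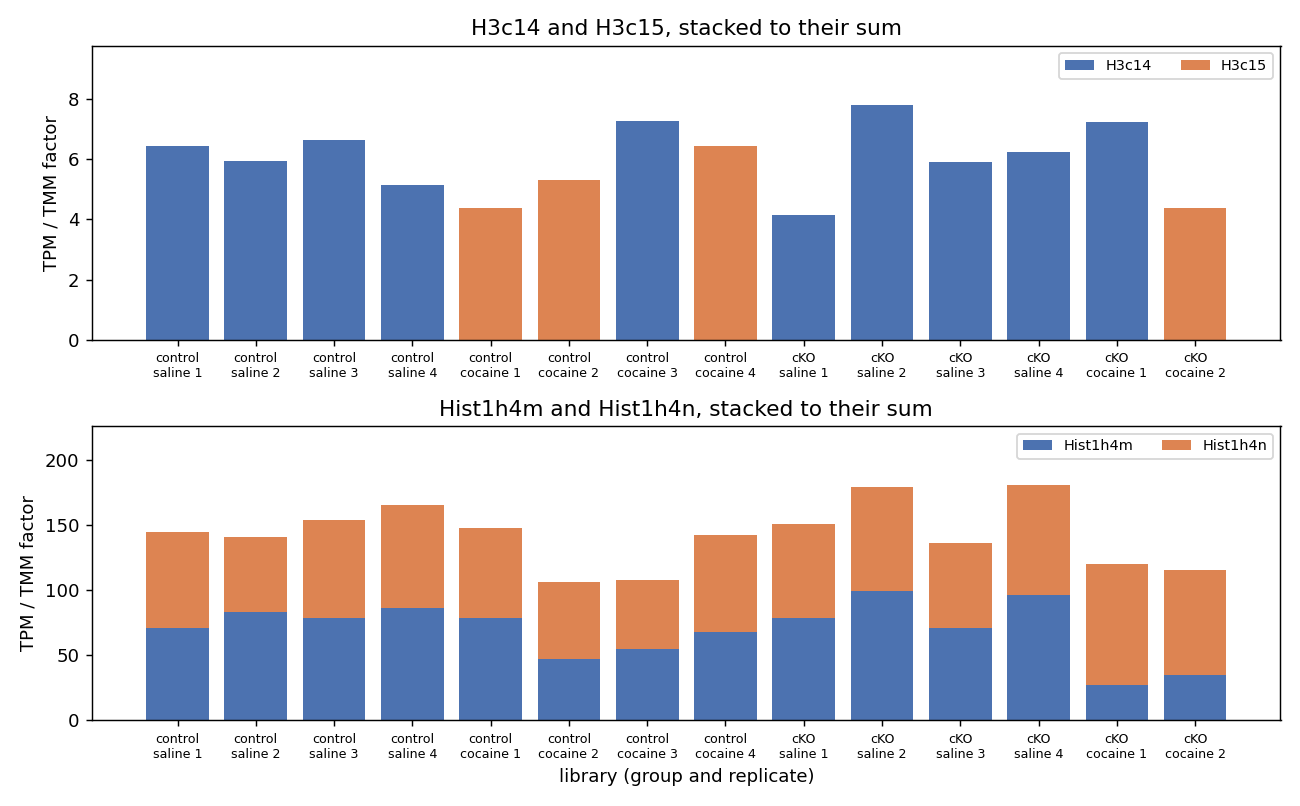
Stacked bars give TPM divided by the TMM factor of each gene of a pair that shares sequence, in each of the 14 libraries. The bar height is the sum of the pair. In the upper plot every library holds 1 colour only, and in the lower plot Hist1h4m is smallest in both libraries labelled cKO cocaine while Hist1h4n is not.

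Within each genotype label the calls were few. For the control label, H1f10 and H3c15 were called higher and H3c14 and H4c14 lower among 72 tested genes, where 1.54% of all genes were called higher and 1.56% lower. H4c14 was 108, 85.0, 114 and 92.2 scaled TPM in control saline against 90.4, 62.4, 66.8 and 61.1 after cocaine, so that a single cocaine library overlapped. Its log2 fold change was -0.51 ± 0.14 (SE, adjusted p = 0.0185, limma). The change was between -0.45 and -0.50, and no longer called, when control saline replicate 1 or 3 or control cocaine replicate 2, 3 or 4 was left out, and -0.38 (adjusted p = 0.0894) with the genotype from the tags. The H3c14 and H3c15 calls for this label, with adjusted p of 0.0409 and 0.025, were lost in 11 and 7 of the 14 fits that left out 1 library. For the cKO label, H1f10 and H2bc3 were called higher and Hist1h4m lower, beside 1.83% and 1.24% of all genes. H2bc3, an H2B gene on chromosome 13 (23746734 to 23747241), was 6.66, 8.87, 8.82 and 8.38 scaled TPM in cKO saline and 13.8 and 10.2 after cocaine. Its log2 fold change was 0.52 ± 0.16 (SE, adjusted p = 0.0378, limma), and without cKO cocaine replicate 1 it was 0.32 (adjusted p = 0.31). The call was also lost without cKO saline replicate 1 (0.43, adjusted p = 0.0829), cKO saline replicate 4 (0.53, adjusted p = 0.0565) or cKO cocaine replicate 2 (0.73, adjusted p = 0.0515). Hist1h4m had a log2 fold change of -1.46 ± 0.19 in this label (adjusted p = 0.000501), which became -0.45 (adjusted p = 0.0457) for the pair with Hist1h4n. The comparisons of both labels share no library.

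Markers of other cell types moved in the same comparisons. The 8 oligodendrocyte markers summed to 1457 to 1757 scaled TPM in saline control mice, against 1802 to 2558 in the cKO mice given saline, without overlap. After cocaine the sums were 1627 to 2526 under the control label, and 1926 and 1954 under the cKO label. For the control label all 8 had positive changes after cocaine (median log2 fold change 0.30), and Mobp, a myelin gene, was called higher (0.61, adjusted p = 0.0102, limma). Between cKO and control mice after saline all 8 were again positive (median 0.45), each with an unadjusted p under 0.05 and none called. Of 7 tested markers of oligodendrocyte precursors, Gpr17 and Sox10 were called higher for the control label (0.55 and 0.50, adjusted p = 0.0183 and 0.018, limma). The 7 ependymal and motile cilia markers were all negative for the control label (median -0.63, none called) and all positive for the cKO label (median 0.98), where Rsph1 was called higher (1.26, adjusted p = 0.0359, limma). Of the 7 tested hypothalamic genes, 4 were called lower for the control label and 1 lower between cKO and control mice after saline. The part of these cell types in the histone values was not tested.

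Genotype labels gave no called histone gene. After saline, none of the 72 genes was called between cKO and control mice (limma), where 0% of all tested genes were called higher and 0.0445% lower, and 3 of the 72 had an unadjusted p under 0.05, as had 16.7% of all tested genes. Log2 fold changes of the 72 genes ranged from -0.25 to 0.63 with a median of 0.01. H1f10 differed by -0.01 (95% interval -0.24 to 0.22) and H4c4, H4c3 and H4c8 overlapped between these groups. After cocaine, none was called between the cKO and control labels, beside 0.00742% higher and 0.0297% lower over all genes, and 8 of the 72 had an unadjusted p under 0.05, as had 12.1% of all tested genes. For the interaction of label and cocaine none was called, beside 0.468% and 0.386% of all genes, and 6 had an unadjusted p under 0.05, as had 18.5% of all tested genes. The interaction of Hist1h4m was -1.08 ± 0.24 (SE) with an adjusted p of 0.0515, and that of H2az1 was -0.27 ± 0.07 (adjusted p = 0.0774). Since Maged1 goes against the labels of the cocaine libraries, the directions of these last comparisons follow labels that it does not bear out.

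H2A genes are of interest in this study because Maged1 and Usp7 were examined for their link to histone H2A monoubiquitination. The genes formerly named Hist2h2aa1, Hist2h2aa2 and Hist2h2ac are listed as H2ac18, H2ac19 and H2ac20. H2ac18 was 139, 118, 125 and 127 scaled TPM in control saline and 107, 102, 114 and 110 in control-labelled cocaine libraries. The cKO-labelled libraries gave 113, 133, 101 and 146 after saline, and 126 and 121 after cocaine. The control groups did not overlap, but the test did not pass (log2 fold change -0.23 ± 0.09 SE, adjusted p = 0.0902, limma), and the change within the cKO label was 0.02 (95% interval -0.23 to 0.27). H2ac19, whose windows all occur in other transcripts, was at 0 in 10 of the 14 libraries and at most 2.21 in the others. Summed with H2ac19, H2ac18 changed by -0.23 in the control label (adjusted p = 0.0869, limma). The model Gm20634, which also shares windows with H2ac18, was not part of this sum. H2ac20, which shares only 6.9% of its windows, was 24.6, 22.9, 23.0 and 25.4 in control saline and 21.98, 18.6, 18.2 and 16.2 after cocaine, without overlap. Its log2 fold change was -0.35 ± 0.09 for the control label (adjusted p = 0.0154) and -0.20 ± 0.11 for the cKO label (adjusted p = 0.247). H2aw fell by 0.23 on the log2 scale for the control label (adjusted p = 0.00279), from 84.6 to 94.2 after saline to 75.4 to 77.7 after cocaine. These changes lie below the minimum of 0.5.

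Genes that make or place histones were also examined. Of 17 genes of histone mRNA production and end processing 15 were tested, and none was called for cocaine against saline over both labels, with a median log2 fold change of -0.003. Slbp, which binds the stem-loop, changed by 0.04 (adjusted p = 0.695), and Npat, the cyclin E target that switches on the clusters, by -0.10 (adjusted p = 0.028). Sympk and Upf1, a scaffold of end processing and a helicase of histone mRNA decay, were higher by 0.20 (adjusted p = 0.000601) and 0.19 (adjusted p = 0.000825), below the minimum. Of 27 chaperones and loaders of variants 25 were tested, none was called, and the median was 0.001. Znhit1 and Srcap, subunits of the complex that deposits H2A.Z, were higher by 0.34 (adjusted p = 0.000102) and 0.24 (adjusted p = 8.21e-05), while H2az1 itself had a change of -0.22. Hira and Atrx, which act in H3.3 deposition, had changes of -0.01 and -0.05 (adjusted p = 0.934 and 0.483, limma). The genes named here were picked from their lists, and the other genes of these lists are not given singly.

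Promoters of the members were examined for the known elements of histone genes, in the RefSeq table of 250 bases before to 50 bases after the start, on both strands. The letters searched were CCAAT, ATTTGCAT (the octamer) and TATAA (the TATA box), and neither CCAAT nor TATAA lies within the octamer. CCAAT was present in 53 of 62 replication-dependent promoters (85.5%) and in 41.1% of all 27025 genes of the table. It was in all 50 promoters of the H1, H2A, H2B and H3 genes but in 3 of 12 H4 promoters (25.0%). TATAA was in 80.6% of replication-dependent promoters, in 17.6% of the 17 variant promoters and in 28.0% of all. The octamer was in 7 of 16 H2B promoters (43.8%) and 7 of 18 H2A promoters (38.9%), in none of the other replication-dependent promoters, and in 2.0% of all genes. Some H2A and H2B genes lie head to head, such as H2ac8 and H2bc8, so the same stretch may be counted in both families. All promoter counts are matches of letters and not tests of binding.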

How the data were processed

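RNA was sequenced from thalamus in 14 libraries, and a further sample of the 15 was not analysed here. According to the study's methods, the authors mapped about 100-base paired reads to GRCm38.p4/mm10 with STAR 2.5.3a, quantified Ensembl transcripts with salmon and deposited TPM per gene from tximport. In 2 of the deposited tables, recorded under another unit, decimal commas were read as points, and these values are TPM too. TPM keeps no depth, so counting error is unknown. Groups follow the sample titles. TPM were divided by unweighted TMM factors, with 30% of log ratios and 5% of mean values trimmed on each side. After adding 0.5, log2 values of the 13471 genes that reached 1 TPM in 3 or more libraries were fitted in limma 3.58.1 (R 4.3.3), with the 4 groups as means and an intensity trend. Fold changes are on this log2(value + 0.5) scale and understate low genes. Adjusted p-values are Benjamini-Hochberg over all tested genes and rest on the spread between libraries of different mice within groups. They cannot separate cocaine from library differences that go with it, such as those in the TMM factors. The procedure was tested on simulated data.

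Members, lists and named genes were chosen with earlier results of these data known. Genes named by rule are Maged1, called members, the 10 highest of each class and the H2A genes H2ac18, H2ac19 and H2ac20. From other lists the rule took up to 5 called genes. Genes of those lists that were not called, such as Slbp, Mki67, Znhit1 and Srcap, are named outside this rule. Near-identical genes were those sharing at least 60% of the 100-base windows of either longest GENCODE M21 transcript, and their sums were an alternative chosen after seeing the data. Older symbols came from RefSeq (GRCm38.p6), and M21 transcripts were found for all 88 members and 97.9% of listed genes. Other alternatives were other scalings, pseudocounts, no filter, GC and length trends removed (loess), genotype tags, no minimum of change, a replicate block and each library left out. Scripts ran in Python 3.11.15 with pandas 2.3.3.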

Additional observations from a re-analysis of the deposited data

Results flagged for a closer look

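Within groups of 4 libraries, 96 sets of values were examined for a library far from the other 3, and 6 stood apart by Dixon's criterion, where chance gives about 1 in 20. H3c14 was 7.28 scaled TPM in control cocaine replicate 3 and 0 in the other control cocaine libraries, the reverse of H3c15. H2ac19 was 2.21 in control saline replicate 2 and 2.12 in control cocaine replicate 1, and 0 in the other libraries of these groups. H4c12 was 81.0 in control saline replicate 2, against 102 to 106 in the other 3, and 62.6 in control cocaine replicate 2, against 75.9 to 77.9. H2bc18 was 57.0 in cKO saline replicate 3, against 63.9 to 65.1. H3c14, H2ac19 and H4c12 share much of their sequence with other genes.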

How the results depend on the processing

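Between 4 and 6 histone genes were called for cocaine against saline over both labels when each library was left out in turn, beside 5 with all. The range was 0 to 5 for the control label, 1 to 4 for the cKO label, 0 to 0 for genotype after saline, 0 to 1 for the labels after cocaine and 0 to 1 for the interaction. For the control label, 0 were called without control cocaine replicate 4, 1 without control saline replicate 1, 3 or 4 or control cocaine replicate 2, and 2 without control cocaine replicate 3. For the cKO label, 1 was called without cKO cocaine replicate 2. In TPM as deposited, 18, 19 and 12 genes were called for both labels, the control label and the cKO label, nearly all lower. The median of all tested genes in that scaling was -0.335 over both labels. The shares of all genes called there are not given, so these counts are not read as a result about histone genes. With no minimum of change the counts were 15, 9 and 5 of 72 tested histone genes. Of all 13471 tested genes, 2347 were then higher and 2064 lower over both labels. For the control label 2015 were higher and 1260 lower, and for the cKO label 1238 and 1441. With near-identical members summed, an alternative chosen after seeing the data, 2 were called over both labels and 2 for the control label. In that fit the sum of H3c13, H3c14 and H3c15 changed by 0.003 over both labels and by -0.043 for the control label. The single-gene changes of H3c14 over both labels and of H3c15 for the control label had the opposite sign. H3c13 makes up most of this sum, at a mean of 23.1 scaled TPM against 4.48 for H3c14 and 1.46 for H3c15. With the genotype from the tags, 1 was called for the control label. With GC content and length trends removed, 1 was called for the cKO label and 1 for the interaction. The cause of these last changes was not tested. Median-of-ratios factors, quantile scaling, pseudocounts of 0.1 and 1 and no filter kept each count within 1.5 times the main count. With a replicate block, 4 genes were called over both labels, 4 for the control label and 3 for the cKO label. The H3c14 calls were lost (adjusted p = 0.0538 over both labels and 0.0506 for the control label) and H4c9 was gained for the control label (-0.61, adjusted p = 0.0468 against 0.0504 without the block). The block changed no other call. Libraries of the same number in different groups deviated together no more than others (mean correlation -0.014 over 18 pairs, 0.005 over 54 other pairs). No pairing by number was seen, but these means cannot exclude a batch shared by some mice. Read depth, unknown from TPM, limits the low genes most.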
